A study of Mus musculus with 28 samples.

Results

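The 7 genes described here encode enzymes of serine synthesis, of the serine to glycine and folate step, and of asparagine synthesis: Psat1, Phgdh, Psph, Shmt1, Shmt2, Mthfd2 and Asns. They were chosen by the CPM of Psat1 in tumors against non-tumor liver, around its strong rise there, so their difference between tumor and non-tumor liver is given as a description with no test. The choice used no cutoff. They are 7 of 22187 genes measured in 28 mouse liver libraries, and all 7 passed the filter on low values.

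Serine is made from the glycolytic intermediate phosphoglycerate in a pathway that Phgdh opens by oxidation, Psat1 continues by transferring an amino group from glutamate, and Psph ends by removing the phosphate. Shmt1 in the cytosol and Shmt2 in mitochondria split serine into glycine and a carbon unit carried by folate, and Mthfd2 oxidises that unit in mitochondria towards formate. Asns makes asparagine from aspartate and glutamine. The transcription factor ATF4, which is translated under amino acid shortage and other stress, is known to induce most of these genes. In rat liver, Phgdh is known to be low on protein-rich food.

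The mice were C57BL/6, and each had received the liver carcinogen diethylnitrosamine (DEN) at the age of 2 weeks, as 25 mg/kg i.p. Libraries came from their tumors and from liver outside the tumors. All mice carried floxed alleles of the interleukin-17 receptor A gene, labelled IL17RA_floxflox and called FF here. Mice labelled AlbCre_IL17RA_floxflox, called dHEP, also carried a Cre recombinase driven by the albumin promoter, which is active in hepatocytes. Bulk libraries do not show in which liver cells the gene was deleted. Mice received an alcohol diet (labelled HFD_alcohol and described as liquid ethanol feeding) or chow for 18 weeks. The groups were dHEP alcohol tumors (n = 4), FF alcohol tumors (n = 4), dHEP chow tumors (n = 3) and FF chow tumors (n = 3), with non-tumor liver of the same 4 kinds in the same numbers. The labels give no sex. Animal numbers of the alcohol mice and of the chow mice come from separate ranges, and effects of diet and of cohort cannot be told apart. By its label and description, the alcohol diet may differ from chow in fat and form as well as in ethanol. These parts cannot be told apart either. FF chow tumors and FF chow non-tumor liver came from different animals.

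Values are CPM, read counts scaled to the same total in each library, and the estimated depth was 9.57 to 17.82 M reads per library, so that 1 CPM stood for 9.57 to 17.82 reads. Il17ra, the deleted gene, ranged over 8.38 to 29.4 CPM in dHEP tumors and over 20.8 to 33.9 CPM in FF tumors, and these ranges overlapped. It ranged over 8.34 to 13.0 CPM in dHEP non-tumor liver and over 14.7 to 31.0 CPM in FF non-tumor liver (n = 7 each), with no overlap. Hepatocyte markers were present in every group, with a summed level of 108500 to 202600 CPM in tumors and of 64220 to 111300 CPM in non-tumor liver. Single markers went both ways in tumors, by the calls defined below. Apoa1 was called higher in 4 comparisons, Alb in 2 and Fgb in 1. Ass1 and Cps1 were called lower in 2 each and Serpinc1 in 1, and Hnf4a, Apob and Ttr were not called. Some libraries stood apart. In non-tumor liver, FF-523 held 212.7 CPM and FF-581 159.2 CPM of the tumor marker Afp, against at most 8.82 CPM in the other non-tumor libraries, and the tumors dHEP-549 and dHEP-550 held 0.473 and 1.66 CPM of the tumor marker Gpc3. The non-tumor library FF-158 had a summed level of 1107 CPM for 8 female-biased liver genes, against at most 86.8 CPM in the other non-tumor libraries. In bulk tissue, fewer cells of a type and less RNA per cell cannot be told apart.

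The 250 bases upstream of the start site are shown for Asns, the most variable of the genes between tumors, for Phgdh and Mthfd2, whose levels followed Asns from tumor to tumor, and for Psat1, around which the set was chosen. All are from RefSeq on GRCm38.p6, on the minus strand, written 5′ to 3′. Capitals mark a match to TGATGNAA, the core letters of the composite element through which ATF4 and C/EBP proteins bind.
Asns, chr6:7693210-7693459: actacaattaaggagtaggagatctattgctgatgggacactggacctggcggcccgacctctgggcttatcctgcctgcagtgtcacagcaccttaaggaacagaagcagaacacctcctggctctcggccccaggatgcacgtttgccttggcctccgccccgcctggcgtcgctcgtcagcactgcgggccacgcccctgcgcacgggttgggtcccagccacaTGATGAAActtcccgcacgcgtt
Phgdh, chr3:98339970-98340219: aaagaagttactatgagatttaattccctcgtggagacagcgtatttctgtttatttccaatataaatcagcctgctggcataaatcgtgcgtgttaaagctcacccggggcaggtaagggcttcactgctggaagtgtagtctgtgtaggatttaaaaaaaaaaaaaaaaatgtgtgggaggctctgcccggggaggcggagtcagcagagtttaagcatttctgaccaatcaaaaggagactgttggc
Mthfd2, chr6:83317605-83317854: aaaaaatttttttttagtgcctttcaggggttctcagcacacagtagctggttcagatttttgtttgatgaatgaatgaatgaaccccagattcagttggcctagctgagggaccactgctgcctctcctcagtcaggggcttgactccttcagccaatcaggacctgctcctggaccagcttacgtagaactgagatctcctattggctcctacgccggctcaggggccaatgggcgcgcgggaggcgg
Psat1, chr19:15925060-15925309: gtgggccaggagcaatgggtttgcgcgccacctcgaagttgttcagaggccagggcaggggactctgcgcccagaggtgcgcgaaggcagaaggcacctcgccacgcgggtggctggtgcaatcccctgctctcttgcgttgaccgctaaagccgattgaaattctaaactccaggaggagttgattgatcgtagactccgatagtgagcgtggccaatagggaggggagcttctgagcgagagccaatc
The Asns window held 1 match, TGATGAAA, from 23 to 16 bases before the start site. The Psat1 window is that of the more upstream of its 2 start sites in the table. The windows of the other 6 genes, both of Psat1 included, held none on either strand (TGATGNAA or its reverse complement TTNCATCA), and 3.45% of the 32851 promoter windows of this length in the table held one. No window of the 7 genes held the E-box CACGTG, which 6.02% of all windows held. A match is a run of letters and not a measured binding site. On GRCm38 all 7 genes lie on the minus strand, Phgdh at chr3:98313170-98339990, Psph at chr5:129765558-129787449, Asns at chr6:7675169-7693254 and Mthfd2 at chr6:83305691-83325908. Shmt2 lies at chr10:127517123-127522444, Shmt1 at chr11:60788104-60811718 and Psat1 at chr19:15904678-15947337. These spans are from GENCODE and reach upstream of the RefSeq start sites used for the printed windows. The spans of Psat1 and Mthfd2 cover their printed windows wholly, and those of Asns and Phgdh cover theirs in part. The match in the Asns window lies within the Asns span.

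Psat1, the aminotransferase of serine synthesis, was between 10.8 and 78.7 times as high in tumors as in non-tumor liver by group means, and higher in the tumor of each of the 11 animals with both tissues. In dHEP alcohol tumors the level was 38.8 CPM in dHEP-518, 67.4 in dHEP-520, 9.38 in dHEP-549 and 14.7 in dHEP-550, against 0.475, 0.873, 0.654 and 1.77 CPM in the non-tumor liver of the same mice. In FF alcohol tumors the level was 38.4 CPM in FF-503, 84.9 in FF-523, 39.8 in FF-581 and 58.9 in FF-595, against 0.989, 2.76, 16.2 and 0.704 CPM in their non-tumor liver. Every tumor stood above every non-tumor library of its own group. The pair of dHEP tumors with little Gpc3 had the lowest Psat1, but the tumor with the lowest summed tumor marker level, dHEP-165, had 65.03 CPM of Psat1. In non-tumor liver, the pair of FF libraries with much Afp had the highest Psat1. In dHEP chow tumors Psat1 stood at 60.9 CPM in dHEP-155, 47.5 in dHEP-164 and 65.03 in dHEP-165, against 0.656, 1.04 and 0.659 CPM in their non-tumor liver. In FF chow tumors it stood at 114.4 CPM in FF-167, 71.6 in FF-168 and 27.4 in FF-169, against 0.313, 1.81 and 0.586 CPM in the non-tumor liver of 3 other mice (FF-157, FF-158, FF-159). The highest level of all was thus in an FF chow tumor.

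Group means of Psat1 were 32.6 ± 26.5 CPM in dHEP alcohol tumors, against 0.942 ± 0.573 CPM in non-tumor liver (SD, n = 4 each). The log2 fold change on the log2(CPM + 1) scale, which understates changes of genes near 0 CPM, was 3.77 ± 0.58 (SE). It was 3.80 ± 0.58 in FF alcohol, where the means were 55.5 ± 21.7 CPM in tumors and 5.15 ± 7.39 CPM in non-tumor liver. It was 5.04 ± 0.67 in dHEP chow (57.8 ± 9.19 against 0.784 ± 0.219 CPM) and 5.10 ± 0.67 in FF chow (71.1 ± 43.5 against 0.904 ± 0.798 CPM, n = 3 each). The libraries that stood apart moved these values: with FF-523 and FF-581 left out of non-tumor liver, the FF alcohol fold of means was 65.6 in place of 10.8 and the log2 fold change 4.86. Without the tumors dHEP-549 and dHEP-550 the dHEP alcohol log2 fold change was 4.79. In the 11 animals the tumor to non-tumor ratio of Psat1 ran from 2.47 in FF-581 to 98.7 in dHEP-165, with a median of 45.8. Among the 14 tumors Psat1 spread over 12.2-fold, and 1 dHEP alcohol tumor, at 9.38 CPM, lay below the 16.2 CPM of the FF-581 non-tumor library.

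**Figure D1:**
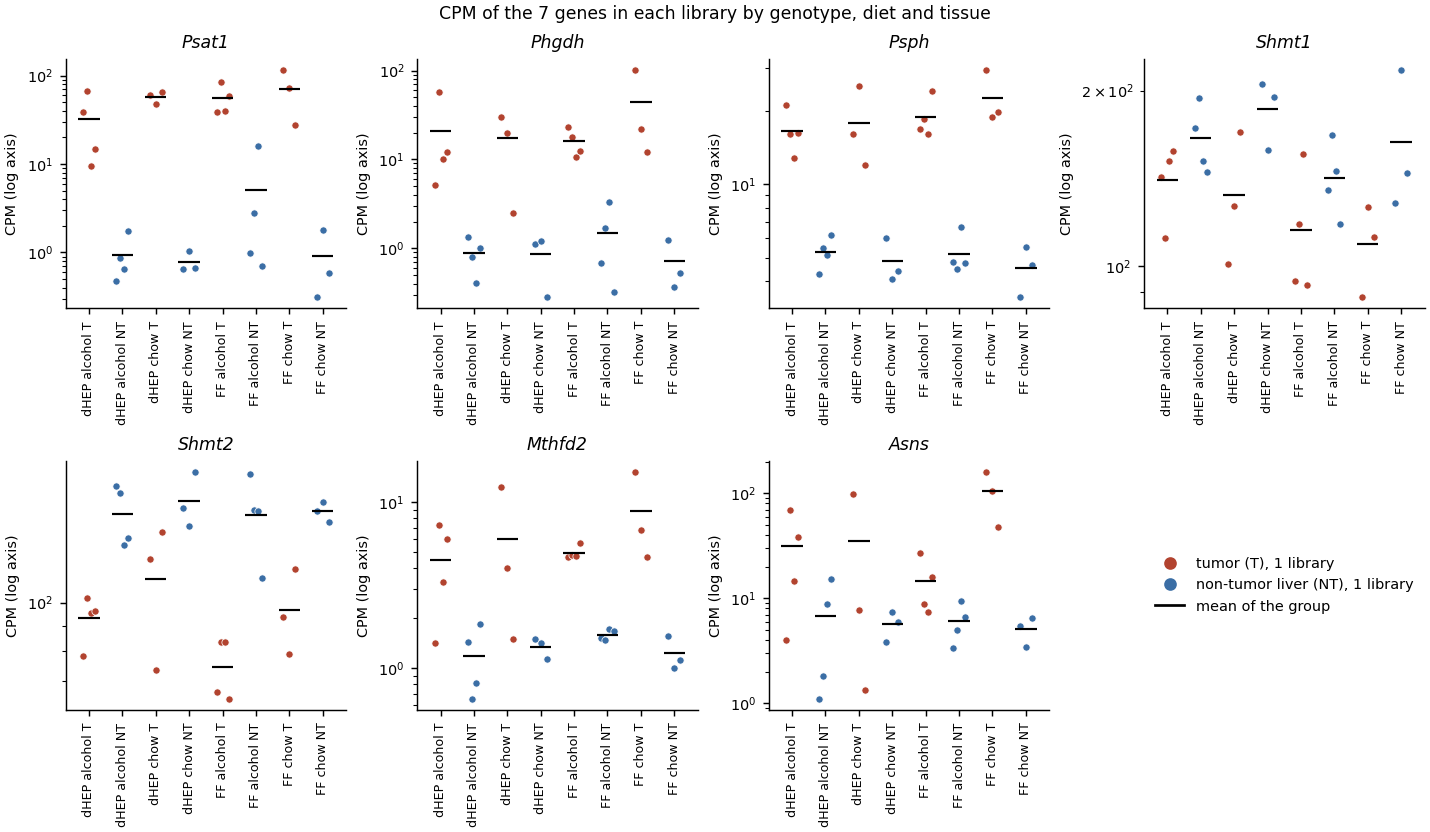
CPM (log axis) of the 7 genes in each library, with tumor groups (T) left of the matching non-tumor groups (NT); each point is 1 library and each line the mean of its group. Psat1, Phgdh and Psph were higher in tumors in all 4 pairs of groups with no overlap, Shmt2 was lower, and Asns spread from 1.35 to 159.5 CPM in tumors.

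Phgdh, the first enzyme of the pathway, was higher in the tumor of all 11 animals, with ratios of 3.25 to 71.3 and a median of 16.4. It read 5.13, 57.0, 10.2 and 12.04 CPM in dHEP alcohol tumors and 22.9, 17.8, 10.7 and 12.6 CPM in FF alcohol tumors, in the order of mice above. It read 29.7, 19.7 and 2.499 CPM in dHEP chow tumors and 100.4, 21.7 and 12.1 CPM in FF chow tumors. The tumors dHEP-520 and FF-167 stood far above the others, and dHEP-165 was lowest. Non-tumor liver held 0.283 to 3.30 CPM, with a median of 0.899 CPM over 14 libraries and the highest value again in FF-581. The log2 fold change was 3.02 ± 0.64 in dHEP alcohol, 2.86 ± 0.64 in FF alcohol, 2.84 ± 0.74 in dHEP chow and 4.22 ± 0.74 in FF chow. Single tumors moved these values: dHEP chow was 3.79 without dHEP-165 and 2.23 without dHEP-155, dHEP alcohol 2.38 without dHEP-520, and FF chow 3.37 without FF-167 and 4.84 without FF-169. FF alcohol was 3.45 with FF-523 and FF-581 left out of non-tumor liver.

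Psph, the phosphatase that ends the pathway, was the only 1 of the 7 genes with no overlap between all tumors and all non-tumor libraries. All 14 tumors (12.02 to 29.3 CPM, median 17.7) lay above all 14 non-tumor libraries (3.45 to 6.66 CPM, median 4.77), which 1.97% of the 13503 genes tested also did in this direction. The log2 fold change was 1.47 ± 0.21 in dHEP alcohol, 1.69 ± 0.21 in FF alcohol, 1.64 ± 0.24 in dHEP chow and 2.08 ± 0.24 in FF chow. Ratios within the 11 animals ran from 2.40 to 6.22 with a median of 2.94. The Psph gene overlaps Cct6a on the opposite strand. The labels name a stranded kit but the sources used here do not say how strand was used in counting, which applies also to Shmt1 (overlapping Smcr8), Shmt2 (overlapping Ndufa4l2) Psat1 (overlapping the pseudogene Gm3329) and Mthfd2 (overlapping Gm43890 on the same strand).

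Shmt2, the mitochondrial serine hydroxymethyltransferase, was lower in tumors, against the direction of the serine synthesis enzymes. It averaged 93.1 ± 10.2 CPM in dHEP alcohol tumors, against 149.9 ± 20.7 CPM in non-tumor liver, and 74.5 ± 10.3 CPM in FF alcohol tumors, against 149.0 ± 27.8 CPM (SD, n = 4 each). It averaged 111 ± 33.7 CPM in dHEP chow tumors, against 159.2 ± 20.3 CPM in non-tumor liver, and 96.5 ± 18.97 CPM in FF chow tumors, against 152 ± 6.81 CPM (n = 3 each). The groups did not overlap in any of the 4 pairs. Shmt2 was lower in the tumor of all 11 animals, at 0.371 to 0.791 times the non-tumor level, and 7.69% of genes were lower in all 11. The log2 fold change was -0.68 ± 0.17, -0.98 ± 0.17, -0.56 ± 0.20 and -0.66 ± 0.20 in dHEP alcohol, FF alcohol, dHEP chow and FF chow, and the dHEP chow value was -0.28 without the tumor dHEP-164.

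Shmt1, the cytosolic enzyme, differed less between the tissues. It ranged over 88.3 to 170 CPM in tumors (median 122) and over 118 to 217 CPM in non-tumor liver (median 154.8, n = 14 each). The groups overlapped in all pairs except FF chow, where tumors read 88.3 to 126 CPM, against 128 to 217 CPM in non-tumor liver. It was lower in the tumor of 9 of 11 animals, with a median ratio of 0.803, and log2 fold changes ran from -0.24 ± 0.19 in dHEP alcohol to -0.56 ± 0.22 in FF chow.

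Mthfd2, the mitochondrial enzyme after Shmt2, is known to be low in normal adult tissue and high in embryos and many tumors. It read 1.41, 7.26, 3.31 and 5.99 CPM in dHEP alcohol tumors and 4.69, 4.76, 4.70 and 5.66 CPM in FF alcohol tumors. It read 12.3, 4.03 and 1.49 CPM in dHEP chow tumors and 15.1, 6.79 and 4.65 CPM in FF chow tumors. Non-tumor liver held 0.655 to 1.84 CPM, near the limit of 1 CPM used for testing. Tumors lay above non-tumor liver with no overlap in both FF pairs, and in dHEP mice the tumors dHEP-518 and dHEP-165 lay within the non-tumor range. The log2 fold change was 1.21 ± 0.39 in dHEP alcohol, 1.2 ± 0.39 in FF alcohol and 2.01 ± 0.44 in FF chow. It was 1.23 ± 0.44 in dHEP chow, and there 0.60 without the tumor dHEP-155 and 1.81 without the tumor dHEP-165. Mthfd2 was higher in the tumor of 10 of 11 animals, with a median ratio of 3.24.

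Asns, asparagine synthetase, had the widest spread of the 7 genes among tumors, 118-fold from the lowest to the highest. It read 3.97, 68.7, 14.5 and 38.6 CPM in dHEP alcohol tumors, against 1.11, 1.82, 8.82 and 15.2 CPM in their non-tumor liver. It read 26.9, 8.80, 7.41 and 15.9 CPM in FF alcohol tumors, against 3.35, 5.01, 9.43 and 6.60 CPM in their non-tumor liver. In both pairs the ranges overlapped. It read 97.4, 7.77 and 1.35 CPM in dHEP chow tumors, against 3.84, 7.41 and 5.93 CPM in their non-tumor liver. It read 159.5, 106 and 47.3 CPM in FF chow tumors, against 5.43, 3.44 and 6.52 CPM in the non-tumor liver of FF-157, FF-158 and FF-159. Only FF chow tumors all lay above their non-tumor group. The log2 fold change was 3.97 ± 0.98 in FF chow, 1.95 ± 0.85 in dHEP alcohol (2.66 without the tumor dHEP-518) and 1.06 ± 0.85 in FF alcohol. In dHEP chow it was 0.95 ± 0.98, and it was -0.53 without the tumor dHEP-155 and 2.16 without the tumor dHEP-165. Asns was higher in the tumor of 9 of 11 animals, with ratios from 0.228 in dHEP-165 to 37.8 in dHEP-520 and a median of 2.41.

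Counts of members whose groups did not overlap can be read beside the share of all tested genes, although the choice of the members used this contrast. In dHEP alcohol 3 members were higher and 1 lower without overlap (13.8% and 7.38% of all genes), and in dHEP chow also 3 and 1 (23.5% and 15% of all genes). In FF alcohol 4 were higher and 1 lower (15.9% and 12.4%), and in FF chow 5 and 2 (30.7% and 15.7%). By animal, 15.2% of all genes were higher in the tumor of all 11 mice, as were Psat1, Phgdh and Psph.

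**Figure D2:**
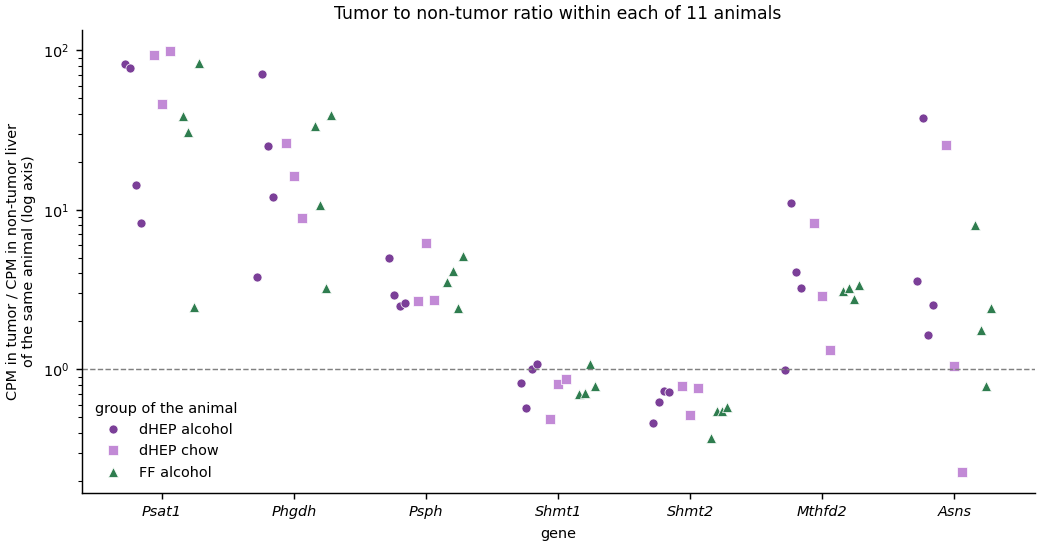
Ratio of CPM in the tumor to CPM in non-tumor liver of the same animal (log axis) for the 7 genes, in the 11 animals with both tissues; each point is 1 animal and the dashed line marks a ratio of 1. Psat1, Phgdh and Psph lie above the line and Shmt2 below it in every animal, and Asns runs from 0.228 to 37.8.

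Per kilobase of exon, Shmt1 and Shmt2 had the highest mean levels of the 7 genes over all tumors and over all non-tumor libraries. FF chow tumors were an exception, with Asns at 38.1 ± 20.51, Shmt2 at 31.1 ± 6.10 and Shmt1 at 28.04 ± 4.93 CPM per kb (SD, n = 3). Over all tumors Shmt1 averaged 32.1 ± 6.88 and Shmt2 29.7 ± 6.92 CPM per kb (SD, n = 14), which differ by less than their spread. They were followed by Asns at 15.8 ± 17.6, Psat1 at 12.4 ± 6.59 and Phgdh at 9.61 ± 10.4 CPM per kb, which also overlap, and then by Psph at 4.34 ± 1.12 and Mthfd2 at 1.68 ± 1.08 CPM per kb. Over all non-tumor libraries the order was Shmt2 (48.9 ± 6.14 CPM per kb), Shmt1 (41.9 ± 7.80), Asns (2.19 ± 1.32) and Psph (1.15 ± 0.206). Psat1 (0.494 ± 0.963), Phgdh (0.410 ± 0.317) and Mthfd2 (0.386 ± 0.1002 CPM per kb) came last and overlapped. In FF alcohol non-tumor liver, which holds FF-581, Psat1 averaged 1.21 ± 1.74 and Psph 1.19 ± 0.232 CPM per kb (n = 4).

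Markers of other cells and of growth also differed between the tissues, and their part in the differences above was not tested. The summed level of 8 proliferation genes was 53.1 to 465 CPM in tumors and 10.7 to 66.4 CPM in non-tumor liver, and all 8 were called higher in dHEP alcohol, dHEP chow and FF chow and 5 of 8 in FF alcohol. A gene was called when its adjusted p in limma was below 0.05 by the Benjamini-Hochberg method over all genes tested. Of 13503 genes, 20.4% were called in dHEP alcohol, 27.9% in dHEP chow, 24.6% in FF alcohol and 30.8% in FF chow. Higher calls made up 12.9%, 17.2%, 13.9% and 21.2% of genes in the same order. The summed level of 8 T, NK, B and plasma cell genes was 164.9 to 854 CPM in FF chow tumors, the group with the highest Asns, against 12.2 to 24.6 CPM in FF chow non-tumor liver. There 5 of 7 tested were called higher. In the tumors of the other groups that sum was 10.5 to 201.5 CPM. Kupffer cell and macrophage genes (8 tested) had 4, 4, 3 and 0 lower calls in dHEP alcohol, dHEP chow, FF alcohol and FF chow and 1 higher call in FF chow, with sums of 113 to 679 CPM in tumors and 278 to 824 CPM in non-tumor liver. Of 8 stellate cell and fibroblast genes, Acta2 and Col3a1 were called higher in all 4 comparisons, as were 6.71% of all genes. Col1a1 was called higher in 2 and Dcn lower in 1, and Lrat, Rgs5, Des and Pdgfrb were not called. Of 7 endothelial genes, Pecam1 was called higher in 3, Tie1 and Cdh5 in 1 each and Clec4g lower in 1. Lyve1, Kdr and Stab2 were not called. No marker of these lists was at 0 in all libraries.

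Around the 7 genes, folate cycle genes were called in both directions in tumors. Of 17 genes of the folate cycle, 3 were called higher and 1 lower in dHEP alcohol tumors, 3 and 4 in dHEP chow, 5 and 4 in FF alcohol, and 4 and 3 in FF chow, against 7.54%, 10.7%, 10.6% and 9.55% of all genes called lower. The list median log2 fold change was 0.05, -0.06, 0.06 and -0.12 in that order, against 0.09, 0.14, 0.05 and 0.16 over all genes. Those higher in all 4 comparisons were Mthfd1l, which releases formate in mitochondria, and Aldh1l2, which oxidises mitochondrial formyl-folate. Mthfd1l averaged 27.9 ± 15.3 CPM in dHEP alcohol tumors, against 3.54 ± 1.12 CPM in non-tumor liver (log2 fold change 2.48 ± 0.46, adjusted p = 7e-04), and 16.8 ± 1.48 CPM in FF chow tumors, against 1.302 ± 1.04 CPM (3.04 ± 0.54, adjusted p = 0.00026). Its log2 fold change was 2.63 ± 0.54 in dHEP chow and 1.51 ± 0.46 in FF alcohol. The FF alcohol call of Mthfd1l was kept in 12 of 16 alternative fits, with a highest adjusted p of 0.097 in limma without the non-tumor library FF-503. Aldh1l2 rose by 2.10 ± 0.59 in dHEP alcohol, 3.14 ± 0.59 in FF alcohol and 3.52 ± 0.68 in FF chow on the log2 scale. In dHEP chow it was 2.25 ± 0.68 (adjusted p = 0.015), and this call was lost with the animal as a block (adjusted p = 0.064). It was also lost without the tumor dHEP-155 (adjusted p = 0.18 in limma), and the lowest log2 fold change of the alternatives was 0.97. Mthfd2l, the other mitochondrial enzyme of the Mthfd2 step, was called higher in 3 comparisons (0.92 ± 0.24 in dHEP chow, 0.60 ± 0.21 in FF alcohol and 0.87 ± 0.24 in FF chow), but with the animal as a block it was not called in dHEP chow or FF alcohol (adjusted p = 0.057 and 0.066). Tyms, the thymidylate synthase of DNA synthesis, was called higher in dHEP alcohol (0.67 ± 0.22, adjusted p = 0.073 with the block), FF alcohol (0.60 ± 0.22) and FF chow (0.75 ± 0.25).

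Aldh1l1, the cytosolic formyl-folate dehydrogenase, was called lower in dHEP chow (-1.28 ± 0.34), FF alcohol (-1.39 ± 0.30) and FF chow (-1.02 ± 0.34), as was the cytosolic Mthfd1 (-0.92 ± 0.23, -0.79 ± 0.20 and -0.90 ± 0.23 in the same order). Fpgs, which adds glutamates to folates so that cells retain them, was called lower in all 4, at -0.61 ± 0.21 in dHEP alcohol and -1.29 ± 0.21 in FF alcohol.

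No gene of the methionine cycle and transsulfuration list was called higher. Of 13 genes, 4 were called lower in dHEP alcohol and 8 in each of dHEP chow, FF alcohol and FF chow, with list medians of -0.51, -1.35, -1.05 and -1.03. Ahcy, which clears S-adenosylhomocysteine, averaged 397 ± 243 CPM in dHEP alcohol tumors, against 944 ± 146 CPM in non-tumor liver (-1.41 ± 0.27, adjusted p = 0.00088), and 171 ± 17.0 CPM in FF alcohol tumors, against 723 ± 70.0 CPM (-2.07 ± 0.27, adjusted p = 9.6e-06). Bhmt, which remethylates homocysteine with betaine, was called lower in all 4 (-1.83 ± 0.58, -2.69 ± 0.67, -2.43 ± 0.58 and -3.10 ± 0.67 in dHEP alcohol, dHEP chow, FF alcohol and FF chow), as was Aldh7a1. Gnmt, the glycine N-methyltransferase that consumes surplus methyl groups, averaged 95.3 ± 29.6 CPM in FF alcohol tumors, against 670 ± 191 CPM in non-tumor liver (-2.82 ± 0.57).

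The glycine and serine list held enzymes that break down or make these amino acids or act on neighbouring compounds. Lower calls numbered 5, 7, 6 and 5 of 15 genes tested in dHEP alcohol, dHEP chow, FF alcohol and FF chow. No gene was called higher, and list medians were -0.25, -0.74, -0.68 and -0.68. The glycine cleavage genes Gldc, Amt, Gcsh and Dld were called in none of the 4, nor was Sdsl. Sds (serine dehydratase) was called lower in 1. Srr (serine racemase), Dmgdh and Sardh (which demethylate dimethylglycine and sarcosine), Pipox (sarcosine and pipecolate oxidase) and Glyctk (glycerate kinase) were lower in all 4, as were 4.62% of all genes. Dmgdh averaged 186 ± 87.8 CPM in dHEP alcohol tumors, against 486 ± 109 CPM in non-tumor liver, and 113 ± 38.6 CPM in FF chow tumors, against 600 ± 22.6 CPM. Its log2 fold change ran from -1.48 ± 0.28 in dHEP alcohol to -2.46 ± 0.33 in FF chow. The glutamine synthetase Glul, which makes glutamine from glutamate, was also lower in all 4, with 274 ± 247 CPM in dHEP alcohol tumors, against 1263 ± 89.1 CPM in non-tumor liver (-2.94 ± 0.65, adjusted p = 0.0025).

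**Figure D3:**
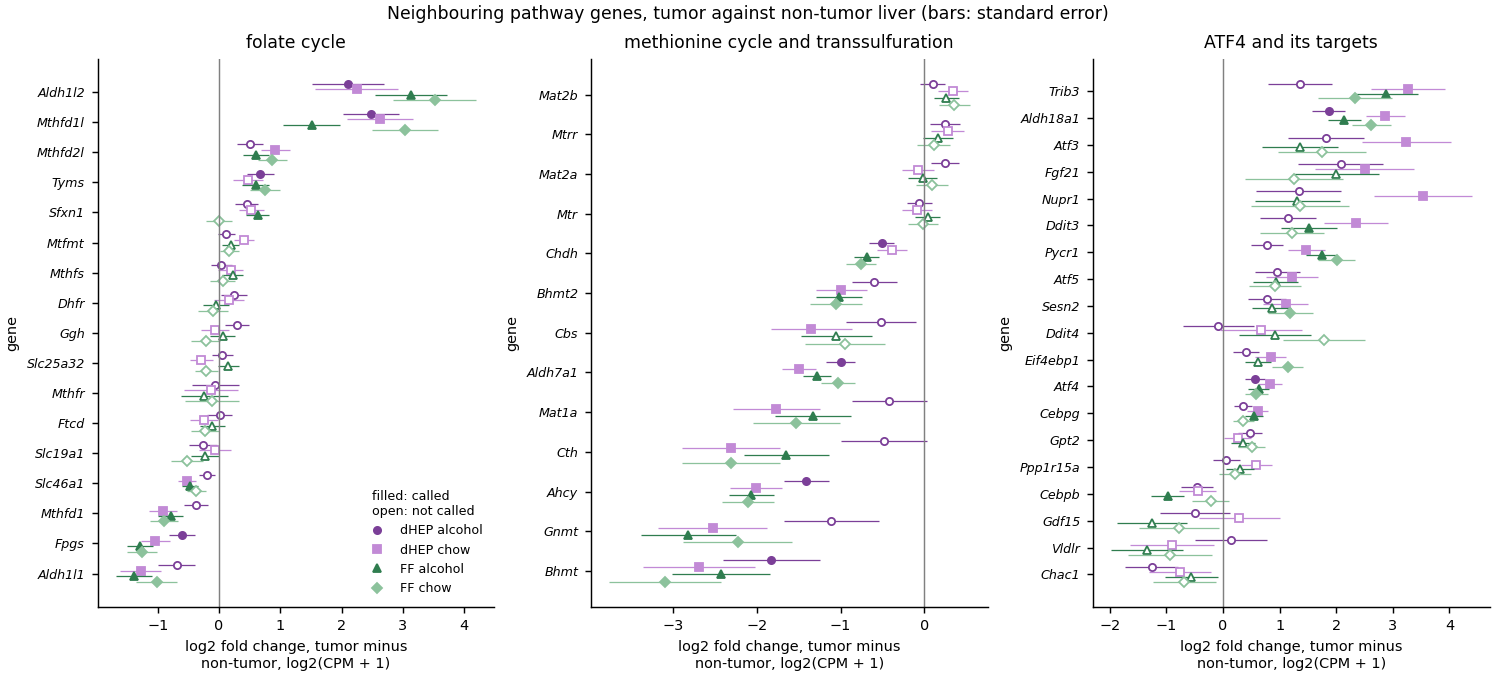
Log2 fold change of tumor minus non-tumor liver on the log2(CPM + 1) scale for the genes of 3 lists around the 7 members, by genotype and diet; bars are standard errors, and filled symbols mark genes called at an adjusted p below 0.05. Mthfd1l and Aldh1l2 lie to the right in all 4 comparisons and Ahcy and Bhmt to the left, and the ATF4 targets lie mostly to the right with few filled symbols in dHEP alcohol.

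ATF4 and its known targets outside the 7 genes leaned upward unevenly. Of 19 tested, 2 were called higher in dHEP alcohol tumors, 12 in dHEP chow, 6 in FF alcohol and 6 in FF chow, with 1 called lower in FF alcohol. The shares of all genes called higher were 12.9%, 17.2%, 13.9% and 21.2% in that order. The list median log2 fold change was 0.57, 0.84, 0.86 and 1.14 in that order, above those of all genes in each. Atf4 itself and Aldh18a1, which starts proline synthesis, were higher in all 4, as were 6.71% of all genes. The Aldh18a1 calls were kept in every alternative fit. The Atf4 call was kept in 11 of 16 alternatives in dHEP alcohol and in 14 of 14 in dHEP chow. It was kept in 14 of 16 in FF alcohol and in 8 of 13 in FF chow (adjusted p = 0.27 in limma without the tumor FF-168). Atf4 averaged 98.9 ± 20.03 CPM in dHEP alcohol tumors, against 65.7 ± 7.02 CPM in non-tumor liver (0.57 ± 0.18, adjusted p = 0.029, and 0.058 with the animal as a block). Trib3, a pseudokinase induced by ATF4, was called higher in dHEP chow (3.27 ± 0.65), FF alcohol (2.88 ± 0.57) and FF chow (2.33 ± 0.65). It was highest at 166 CPM in the tumor dHEP-165, which had the lowest Asns, Phgdh and Psph of all tumors and 65.0 CPM of Psat1.

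Cytosolic tRNA synthetases gave 3, 6, 3 and 3 higher calls of 12 in dHEP alcohol, dHEP chow, FF alcohol and FF chow, and 1 lower call in FF chow (list medians 0.36, 0.50, 0.30 and 0.47). For these and the next lists, 12.9%, 17.2%, 13.9% and 21.2% of all genes were called higher in that order. The shares called lower were 7.54%, 10.7%, 10.6% and 9.55%. The seryl-tRNA synthetase Sars was higher in all 4 (0.74 ± 0.18, 1.02 ± 0.21, 0.83 ± 0.18 and 0.80 ± 0.21). Of 11 amino acid transporters 1, 2, 1 and 5 were called higher and 0, 1, 1 and 1 lower (list medians 0.24, 0.52, 0.11 and 0.92). The serine and alanine transporter Slc1a4 averaged 65.4 ± 30.2 CPM in FF chow tumors, against 6.99 ± 3.68 CPM in non-tumor liver (3.06 ± 0.60, adjusted p = 0.00068). Of 6 purine synthesis genes 1, 1, 2 and 2 were called higher and 0, 1, 1 and 1 lower (list medians 0.26, 0.31, 0.21 and 0.32), and Atic, which uses formyl-folate, was called higher in all 4, though not with the animal as a block in dHEP alcohol (adjusted p = 0.065) or dHEP chow (0.053). Of 8 glutamine and aspartate enzymes 0, 1, 1 and 1 were called higher and 1, 2, 2 and 3 lower (list medians 0.09, -0.53, -0.39 and -0.47). With the animal as a block, 19 of 89 calls of the genes named from these lists were lost in the 3 comparisons with shared animals, 9 of them in dHEP alcohol (among them Bhmt, Fpgs, Pipox and Sardh, adjusted p 0.066 to 0.13) and 8 in dHEP chow. The block, fitted on the compared groups only, called 1601 genes in dHEP alcohol and 2149 in dHEP chow. The fit of all 28 libraries without it called 2754 and 3769. These fits also differ in the libraries used, so the lost calls and lower counts cannot be credited to the block alone. Counts for the compared groups without the block are given in the last section.

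Within tumors, Asns, Mthfd2 and Phgdh varied together, and no pair with Psat1 passed. Over the 14 tumors, 1 per animal, Mthfd2 and Asns correlated at r = 0.88 on the log2(CPM + 1) scale (Spearman rho = 0.83, permutation p adjusted over 21 pairs 0.00042 and 0.0076). Phgdh correlated with Mthfd2 at r = 0.88 (rho = 0.79, adjusted permutation p = 0.0015 and 0.0076) and with Asns at r = 0.82 (rho = 0.78, 0.0015 and 0.0076). Taken as deviations from the group means, the 3 values of r were 0.93, 0.87 and 0.81. Without the 2 tumors farthest from the median of the first gene they were 0.84, 0.75 and 0.65. The tumors FF-167, dHEP-155, FF-168 and dHEP-520 were high in all 3 genes, and dHEP-165 and dHEP-518 were low in all 3. Markers of other cells differed between these tumors as well. The summed level of 8 stellate cell and fibroblast genes was 857.1 CPM in dHEP-155, 708.6 in FF-168, 663.8 in dHEP-520 and 427.7 in FF-167, against 195.0 in dHEP-518 and 342.4 in dHEP-165, with 218.7 to 452.0 CPM in the other tumors. Cholangiocyte and progenitor genes summed to 3172 CPM in dHEP-155 and 752.7 in dHEP-520, but to 110.7 in FF-167 and 119.0 in FF-168, against 77.1 in dHEP-518 and 122.0 in dHEP-165, with 7.38 to 395.4 CPM in the other tumors. Their part in these correlations was not tested. Shmt1 ran the other way: it correlated with Phgdh at r = -0.72 (rho = -0.79, adjusted permutation p = 0.015 and 0.0076), with r = -0.52 without the 2 farthest tumors. Shmt1 and Mthfd2 passed by Pearson alone (r = -0.67, adjusted permutation p = 0.031, rho = -0.57, adjusted p = 0.11).

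Psat1 correlated with Asns at r = 0.17 (adjusted permutation p = 0.70), with Mthfd2 at 0.35 (0.32), with Phgdh at 0.42 (0.23) and with Psph at 0.44 (0.22), and none passed. Its Spearman rho was 0.54 with Mthfd2 and 0.53 with Phgdh (adjusted permutation p = 0.11 each), 0.29 with Asns and 0.23 with Psph, and r with both Mthfd2 and Phgdh was 0.49 without the 2 farthest tumors. Whether these correlations differ from those among Asns, Mthfd2 and Phgdh was not tested. Leaving out 1 tumor at a time left 3 to 6 pairs called by Pearson, with 3 without dHEP-165 or without FF-167, against 5 of 21 in all. In non-tumor liver 0 of 21 pairs passed by either measure. The tumor dHEP-165, the lowest in Asns, also had a summed tumor marker level of 89.6 CPM, the lowest of all tumors. Its summed level of female-biased genes was 464.5 CPM, the highest of all tumors. Its summed level of 8 male-biased genes was 7377 CPM, against a median of 5507 CPM over all tumors. In the non-tumor liver of the same animal these sums were 5.885 and 15060 CPM. The lowest male-biased sum of all tumors was 719.7 CPM in FF-168, whose female-biased sum was 81.96 CPM. Whether these levels bear on the values of either tumor was not tested.

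**Figure D4:**
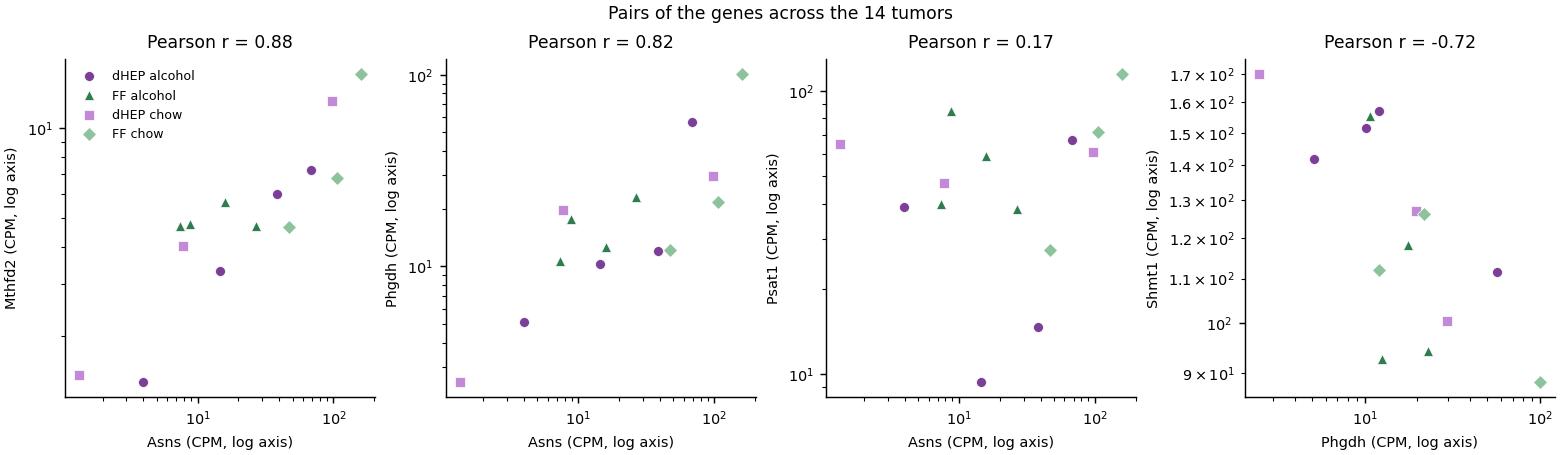
CPM of 4 pairs of the genes in the 14 tumors (both axes logarithmic, r computed on log2(CPM + 1)); each point is 1 tumor, with symbols for genotype and diet. Mthfd2 and Phgdh rise with Asns (r = 0.88 and 0.82), Psat1 and Asns have r = 0.17, and Shmt1 falls with Phgdh (r = -0.72).

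The 5 genes most like Psat1 across the 14 tumors, out of 9896 whose mean reached 5 CPM, were Sccpdh (r = 0.88), Slc35b3 (0.87), Wdr1 (0.86), Anapc4 (0.85) and Prex2 (0.85). Without the 2 tumors farthest from the median of Psat1, Sccpdh kept r = 0.87 and the others stood at 0.58 to 0.63. Across the 14 non-tumor libraries they were Rhoc (0.93), Slc48a1 (0.92), Tmem109 (0.91), Rgs2 (0.91) and Igsf8 (0.90) of 9371 genes, where the high value in FF-581 weighs. For Asns, ranked in the same way after its values had been seen, the nearest genes in tumors were Mthfd2 (0.88), Ano6 (0.88), Myo5a (0.88), Psme1 (0.87) and Slc1a4 (0.86). These are the highest of many correlations and carry no p.

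The dHEP genotype gave no called difference in any of the 7 genes. The tumors dHEP-520 and dHEP-155 held 28.25 and 29.36 CPM of Il17ra, within the 20.8 to 33.9 CPM of FF tumors. The other dHEP tumors held at most 15.48 CPM. Among dHEP tumors, dHEP-520 and dHEP-155 also had the highest Asns, Phgdh and Mthfd2. The part of their Il17ra level in the genotype comparisons was not tested. Psat1 in alcohol tumors averaged 32.6 ± 26.5 CPM in dHEP and 55.5 ± 21.7 CPM in FF (log2 fold change -1.06 ± 0.54, adjusted p = 0.80 in limma, exact permutation p = 0.23). The groups overlapped, with the dHEP tumors at 9.38 to 67.4 CPM and the FF tumors at 38.4 to 84.9 CPM. Psat1 in alcohol non-tumor liver averaged 0.942 ± 0.573 CPM in dHEP and 5.15 ± 7.39 CPM in FF (-1.03 ± 0.55, adjusted p = 0.65), and the log2 fold change was 0.03 without FF-523 and FF-581. Asns in chow tumors averaged 35.5 ± 53.7 CPM in dHEP and 104 ± 56.1 CPM in FF (-2.89 ± 1.16, adjusted p = 1.0, exact permutation p = 0.20, where 0.1 is the smallest possible). Without the tumor dHEP-155 this log2 fold change of Asns was -4.37 (adjusted p = 0.403 in limma). Shmt2 in alcohol tumors averaged 93.1 ± 10.2 CPM in dHEP and 74.5 ± 10.3 CPM in FF (0.32 ± 0.20, adjusted p = 0.86), and Mthfd2 in alcohol non-tumor liver 1.19 ± 0.55 CPM in dHEP and 1.59 ± 0.116 CPM in FF (-0.28 ± 0.18, adjusted p = 0.70). Over all genes limma called 0 (0%) in each of the 4 genotype comparisons, with 833 and 378 at an unadjusted p under 0.05 in alcohol and chow tumors and 1077 and 588 in alcohol and chow non-tumor liver.

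Diet likewise gave no called difference in the 7 genes. Over all genes, limma called 1 of 13205 (0.00757%) for diet in dHEP tumors and 0 in FF tumors. In non-tumor liver it called 0.656% of all genes in dHEP and 0.577% in FF. Asns was lower in FF alcohol tumors (7.41 to 26.9 CPM) than in FF chow tumors (47.3 to 159.5 CPM) without overlap, at a log2 fold change of -2.74 ± 1.08. This difference did not pass (adjusted p = 0.86, exact permutation p = 0.057, the smallest possible with 4 against 3), and 9.13% of genes were lower without overlap in this comparison. It was the only 1 of the 56 genotype and diet comparisons of the 7 genes without overlap. The shares of all genes higher and lower without overlap were 1.48% and 2.07% for genotype in alcohol tumors and 2.16% and 3.28% in chow tumors, and 1.16% and 2.75% in alcohol non-tumor liver and 6.85% and 4.64% in chow non-tumor liver. For diet they were 2.23% and 3.42% in dHEP tumors, with 1.76% higher in FF tumors, and 4.45% and 12.9% in dHEP and 4.19% and 5.11% in FF non-tumor liver. In dHEP mice the alcohol and chow tumors overlapped in Asns, at 3.97 to 68.7 and 1.35 to 97.4 CPM. Psat1 averaged 32.6 ± 26.5 CPM in dHEP alcohol tumors and 57.8 ± 9.19 CPM in dHEP chow tumors (-1.18 ± 0.59, adjusted p = 0.49). It averaged 5.15 ± 7.39 CPM in FF alcohol non-tumor liver and 0.904 ± 0.798 CPM in FF chow non-tumor liver (1.09 ± 0.60, adjusted p = 0.45), where the alcohol group holds FF-523 and FF-581. Shmt2 averaged 74.5 ± 10.3 CPM in FF alcohol tumors and 96.5 ± 18.97 CPM in FF chow tumors (-0.36 ± 0.21, adjusted p = 0.95). Of the 56 genotype and diet tests of the 7 genes 0 passed, 2 had an unadjusted p under 0.05 (both of Asns in tumors), and the lowest adjusted p was 0.45. Of 42 tests of interactions between genotype, diet and tissue 0 passed either, with 3 at an unadjusted p under 0.05 (all of Asns) and a lowest adjusted p of 0.81. Each of these interactions called 0 (0%) over all genes as well. For Asns the genotype by diet term in tumors was 3.51 ± 1.53 (adjusted p = 0.99 in limma), the diet by tissue term in FF mice -2.91 ± 1.3 (0.82) and the genotype by tissue term on chow -3.02 ± 1.39 (1.0).

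**Figure D5:**
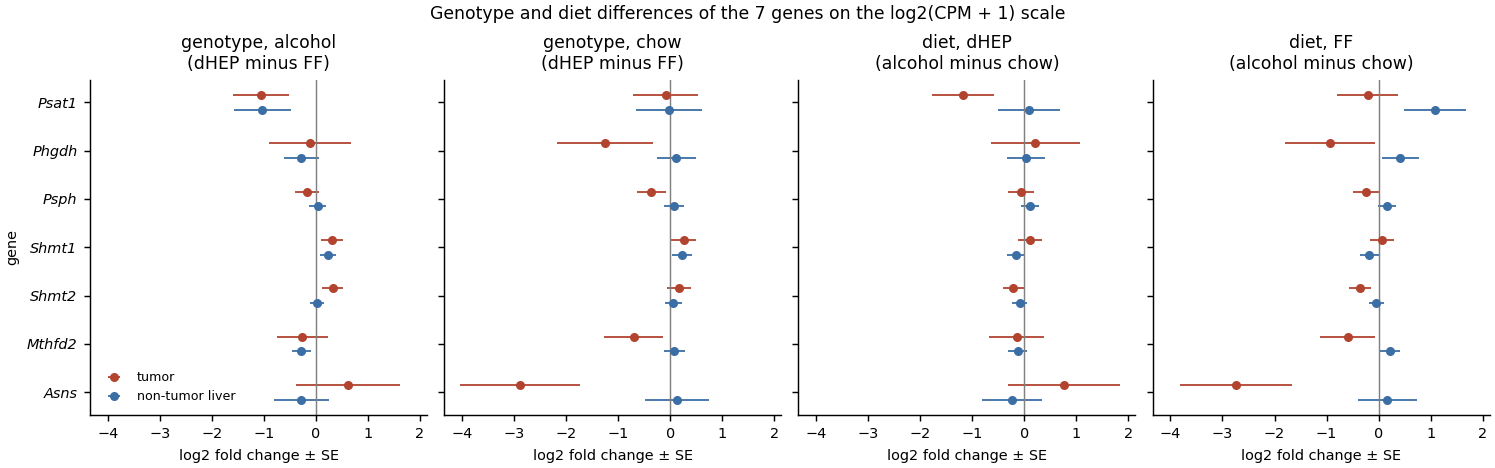
Log2 fold changes (± standard error, log2(CPM + 1) scale) of the 7 genes by genotype (dHEP minus FF) and by diet (alcohol minus chow), in tumors and in non-tumor liver. Asns in tumors lies farthest from 0, at -2.89 for genotype on chow and -2.74 for diet in FF mice, with standard errors over 1; no value was called.

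Among the neighbours of these genes, diet calls were found in non-tumor liver and all were lower on the alcohol diet. Limma called 83 of 12651 genes (0.466% of all genes lower) in dHEP and 73 (0.324% lower) in FF non-tumor liver, and leaving out 1 library gave 2 to 42 and 3 to 216. Of 15 genes of the glycine and serine list, 2 were called in dHEP and 3 in FF. Agxt, which turns glyoxylate into glycine and can use serine, averaged 102 ± 23.4 CPM in dHEP alcohol and 248.7 ± 33.5 CPM in dHEP chow non-tumor liver (log2 fold change -1.3 ± 0.23, adjusted p = 0.028). In FF it averaged 72.8 ± 26.5 CPM on alcohol and 235 ± 10.3 CPM on chow (-1.75 ± 0.23, adjusted p = 0.0098). Gcat, an enzyme of threonine breakdown, was lower by -0.65 ± 0.11 in dHEP (adjusted p = 0.023) and -0.79 ± 0.11 in FF (adjusted p = 0.0098), and Pipox was lower in FF (-0.59 ± 0.10). Of 13 methionine cycle and transsulfuration genes the same pair was called in both genotypes, Cbs and Cth, which turn homocysteine and serine into cysteine. Cth averaged 206 ± 41.1 CPM in dHEP alcohol and 477 ± 90.8 CPM in dHEP chow (-1.21 ± 0.24, adjusted p = 0.042), and 183 ± 65.3 CPM in FF alcohol and 515 ± 67.2 CPM in FF chow (-1.55 ± 0.24, adjusted p = 0.020). Cbs was lower by -0.87 ± 0.16 in dHEP and -0.93 ± 0.16 in FF. Paics (purine synthesis) was called lower in both genotypes and Tars (threonyl-tRNA synthetase) in dHEP.

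Each of these 12 diet calls kept its direction in every alternative and lost its call in at least 1, with highest adjusted p values of 0.095 to 0.25. Calls in FF were lost when the compared groups were fitted alone (for Agxt adjusted p = 0.14), and several in dHEP without the chow library dHEP-155 (for Cth 0.21). In tumors, diet called no gene of the 8 pathway lists, and genotype called none in either tissue.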

How the data were processed

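Gene-level CPM were made by the authors; the submitters' processing notes name STAR 2.5.1a, RSEM 1.3.0 and the build GRCm38, and each deposited column sums to 1000000. The labels name polyA RNA and a stranded total RNA kit, so the fraction sequenced is unclear. Depth was taken from the step that 1 read makes in low values. Of values up to 20 reads, 84.8% to 86.9% were whole reads to within 0.1 read, too few for a count model.

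Symbols, positions and overlaps came from GENCODE vM21 (21653 of 22187 gene IDs matched). Of the listed genes, 2 were not found in the table. Genes that reached 1 CPM in 3 or more fitted libraries were tested on log2(CPM + 1) with limma 3.58.1 in R 4.3.3 (trend, moderated variances): genotype and diet within the 14 libraries of a tissue, tumor against non-tumor in all 28, interactions as differences of differences, adjusted by Benjamini-Hochberg over all genes. Exact permutation tests were two-sided. Correlations used 100000 permutations. Fits were tested on simulated data.

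The members and lists (8 pathway lists with 103 genes, 10 marker lists) were chosen with earlier results of these data known. Of each list, genes called were counted and up to 4 of smallest p named. The libraries taken out, the Asns ranking and pooled models were chosen after seeing the data.

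The number in a sample name was taken as the animal, of which 11 of 17 have both tissues. The deviations of both tissues of an animal from group means had r = -0.107 to 0.251 in dHEP alcohol, 0.16 to 0.356 in FF alcohol and 0.073 to 0.187 in dHEP chow. The animal as a block was fitted as an alternative to the compared groups. The highest correlation between libraries was 0.9954, for a pair from different groups; no library was treated as a duplicate. The labels do not say whether libraries are otherwise independent, and p-values measure the spread between libraries.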

Additional observations from a re-analysis of the deposited data

Results flagged for a closer look

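In the groups of 4, a library was marked when its gap to the nearest other, as a share of the range of its group, passed the 95% critical value of Dixon. Of 28 such groups examined 4 held one, and chance marks about 1 in 20. Phgdh read 57.0 CPM in the alcohol tumor of dHEP-520, against 5.13 to 12.04 CPM in the other tumors of its group, and Asns (68.7 CPM) and Mthfd2 (7.26 CPM) were also highest there. Mthfd2 read 5.66 CPM in the alcohol tumor of FF-595, against 4.69 to 4.76 CPM in its group, a small gap in a group with little spread. Psat1 read 16.2 CPM and Psph 6.66 CPM in the alcohol non-tumor library FF-581, against 0.704 to 2.76 CPM and 4.47 to 4.79 CPM in the rest of its group. This library also held 159.2 CPM of Afp, 17.6 CPM of Gpc3 and a summed proliferation level of 54.3 CPM, whose part in its Psat1 and Psph levels was not tested.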

How the results depend on the processing

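No alternative called any of the 7 genes for genotype, diet or an interaction (lowest adjusted p = 0.0852, Psat1 by diet in FF non-tumor liver with sample quality weights), and pooling the diets or genotypes called none. Direction was followed only for genes and comparisons whose main log2 fold change was large beside its standard error, and smaller differences were left out. Of the 124 single-gene genotype and diet values so followed, the direction turned in 1, Psat1 by genotype in alcohol non-tumor liver, at 0.03 without FF-523 and FF-581. All 2025 values of named pathway genes kept their direction, and 331 lost their call. The cause was not tested. Of 128 calls of these genes between tumor and non-tumor liver, 55 were lost in at least 1 alternative. The numbers of genes called moved more. The replicate block (pairing by animal, compared groups only) gave 1601 calls by tissue in dHEP alcohol and 2149 in dHEP chow, and fitting the compared groups alone gave 1764 and 1925. Leaving out 1 library gave 2372 to 4234 in dHEP chow, with 2372 without the tumor dHEP-155. Diet calls in dHEP tumors were 0 with no filter, with quality weights, with the compared groups alone and without dHEP-549 and dHEP-550, and 0 to 53 leaving out 1 library (53 without dHEP-164). In FF tumors they were 26 with quality weights. The diet by tissue interaction, with 0 calls, gave 144 in FF mice with quality weights (143 lower) and 69 in dHEP mice without the tumor dHEP-164. In dHEP non-tumor liver they were 568 with quality weights, 197 with the compared groups alone, 6 without dHEP-155 and FF-158, and 2 to 42 leaving out 1 library. In FF non-tumor liver they were 31 with no filter, 150 with median-of-ratios scaling, 402 with quality weights, 1 with the compared groups alone, 9 without FF-523 and FF-581, 0 without dHEP-155 and FF-158, and 3 to 216 leaving out 1 library. On chow, leaving out 1 library gave 0 to 4 genotype calls in tumors; in non-tumor liver it gave 0 to 1, and quality weights gave 1. Pairs of genes correlated in tumors numbered 3 to 6 leaving out 1 library (3 without dHEP-165 or FF-167). Median-of-ratios scaling shifted the median log2 fold change of all genes by -0.1223 in dHEP chow and -0.1507 in FF chow by tissue, and by 0.1011 for diet in dHEP tumors. Groups of 3 or 4 libraries limit what could be detected.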
